A study of Homo sapiens with 6 samples.

Results

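Retinoic acid is made from retinol, vitamin A, and the 9 genes described here act on the steps between the entry of retinol into a cell and the delivery of retinoic acid to its receptors. The members were chosen by symbol and are ALDH1A1, ALDH1A2, ALDH1A3, ALDH8A1, STRA6, LRAT, CRABP1, CRABP2 and RDH10. They are 9 of 57145 genes with counts in these libraries, and 8 of them passed the filter on low counts. RNA was sequenced from HEK293, an established human embryonic kidney cell line, as 3 libraries labelled WT and 3 labelled MUL1(-/-). MUL1 is a ubiquitin ligase of the outer mitochondrial membrane, and it was inactivated in the second line with CRISPR-Cas9. Both lines grew in DMEM with fetal calf serum, glutamine, penicillin and streptomycin, and the labels name no added retinoid, so both groups share whatever retinoid the serum held. The labels do not say whether the replicates were separate cultures or which clone was sequenced, so the p-values measure the spread between these libraries, which may be technical.

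STRA6 in the plasma membrane takes up retinol from retinol-binding protein, and LRAT stores retinol as retinyl esters. RDH10 oxidizes retinol to retinal, and the enzymes ALDH1A1, ALDH1A2 and ALDH1A3 oxidize retinal irreversibly to retinoic acid. CRABP1 and CRABP2 bind retinoic acid in the cytosol, and CRABP2 hands it to the nuclear retinoic acid receptors, which bind DNA with RXR partners. The developing kidney uses retinoic acid made by its stroma, where it maintains expression of the receptor tyrosine kinase RET in the ureteric bud.

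The deposited values were read counts per exon bin, a piece of a gene bounded by exon edges, and the bins of a gene were added up. Reads that span several bins enter each of them, so the sums are larger than the read number. Summed gene counts were 135104218, 143533371 and 127657256 in the WT libraries and 123066747, 122910523 and 122550159 in those labelled MUL1(-/-). All WT totals were above all MUL1(-/-) totals, and levels are given as CPM, the count scaled to a TMM-adjusted library size. A single count was worth 0.00704 to 0.00803 CPM. MUL1 itself had 15.4, 15.1 and 18.9 CPM in WT and 18.6, 16.6 and 19.1 CPM in the libraries labelled MUL1(-/-). On the log2 scale the difference was 0.14 (SE 0.10 and adjusted p = 0.323 by edgeR's quasi-likelihood test), so its count does not check the labels, and every direction below rests on them. Of the genes fixed as HEK293 markers, CDH2 (61.9 CPM in WT, 70.4 in MUL1(-/-)), SALL1 (16.3 and 16.0) and VIM (838 and 662) were well expressed. PAX2 was at 9.41 and 2.71 CPM and WT1 at 7.30 and 2.53 CPM, while PAX8 was at 0.0652 and 0.114 CPM and NEFM at 1.73 and 3.62 CPM.

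In the libraries labelled MUL1(-/-), STRA6, LRAT, CRABP2 and ALDH1A3 were lower and ALDH1A1 and ALDH8A1 were higher. CRABP2 was 12.5-fold lower, LRAT 9.33-fold lower, STRA6 9.27-fold lower and ALDH1A3 5.46-fold lower. ALDH1A1 was 12.6-fold higher and ALDH8A1 5.15-fold higher. ALDH1A2, the most abundant of the ALDH1A transcripts in both genotypes, was 1.63-fold higher. RDH10 differed by less than any other tested member, and CRABP1 had 0 counts in every library. A gene was called when its adjusted p from edgeR's quasi-likelihood test was under 0.05 and its absolute log2 fold change above 1. By this rule 2 members were called higher and 4 lower, against 8.14% of all 25166 tested genes called in either direction, 4.26% higher and 3.87% lower. By the adjusted p alone, which 37.5% of all tested genes passed (18.8% higher, 18.7% lower), 4 members were higher and 4 lower. Each of the 8 tested members had values that did not overlap between the genotypes, which 48.5% of all tested genes also had (24.1% higher, 24.4% lower). The median log2 fold change was -1.09 over the tested members and -0.01 over all tested genes. With 4 members higher and 4 lower, the former lies between RDH10 (0.27) and ALDH1A3 (-2.45) and describes no single member. The study picked retinoic acid metabolism as a theme from these same libraries and its heatmap picture of such genes labels several members, so their directions are not independent evidence.

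**Figure D1:**
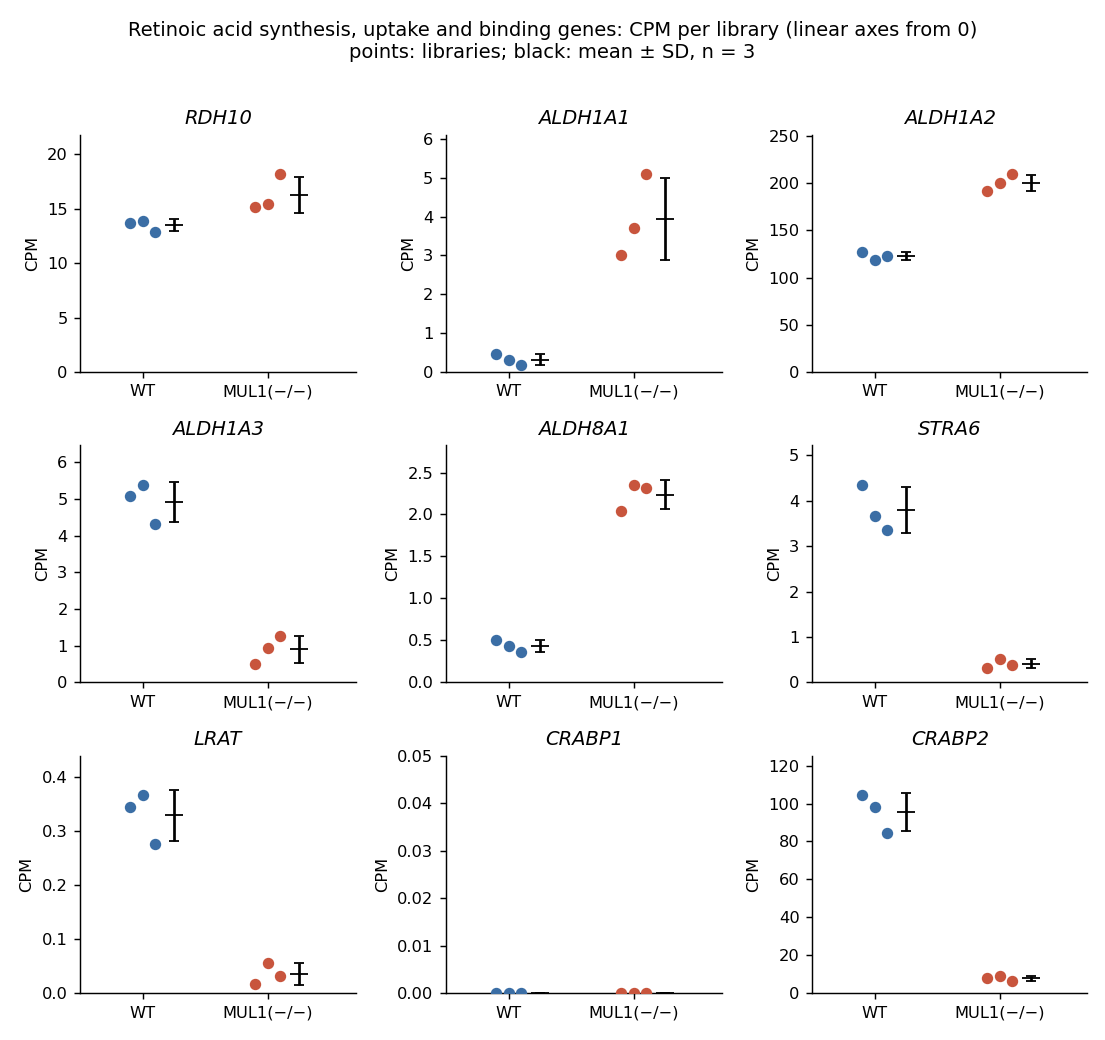
CPM of each of the 9 members (y axis, linear from 0, a separate scale per gene) in each library of WT and MUL1(-/-) (x axis), with points for libraries and black bars for the mean ± SD of 3 libraries. The points of the genotypes do not overlap in any panel but that of CRABP1, where every library is at 0; ALDH1A1, ALDH1A2, ALDH8A1 and RDH10 are higher in MUL1(-/-), and ALDH1A3, STRA6, LRAT and CRABP2 are lower.

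STRA6 (ENSG00000137868, minus strand of chromosome 15, 74179466 to 74212267 on GRCh38), the membrane receptor that passes retinol into the cell, had 4.35, 3.67 and 3.35 CPM in the WT libraries. In the libraries labelled MUL1(-/-) it had 0.322, 0.517 and 0.385 CPM. Every MUL1(-/-) library lay well below the lowest WT library. The log2 fold change was -3.21 (SE 0.18, adjusted p = 6.46e-09 by edgeR's quasi-likelihood test). Of its counts, 16.6% lay in bins that overlap exons of CCDC33 on the opposite strand, and counting did not use strand, so reads of the pair cannot be told apart there. CCDC33 had a log2 fold change of -3.67. In the bins free of any other gene, STRA6 was at -3.08, and in its most counted bin alone at -2.10.

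LRAT (ENSG00000121207, plus strand of chromosome 4, 154626945 to 154753118), the enzyme that esterifies retinol for storage, had the lowest level per kb of exon among the members with any count. The WT libraries had 44, 52 and 35 counts, or 0.345, 0.366 and 0.276 CPM. The libraries labelled MUL1(-/-) had 2, 7 and 4 counts, or 0.0157, 0.0556 and 0.0321 CPM. The groups did not overlap, and LRAT fell by 3.22 on the log2 scale (SE 0.41, adjusted p = 2.06e-05 by edgeR's quasi-likelihood test). It passed the filter on low counts through its WT libraries alone, and under a filter of 1 CPM in 3 libraries or in its most counted bin it was not tested.

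CRABP2 (ENSG00000143320, minus strand of chromosome 1, 156699606 to 156705816), the protein that carries retinoic acid to its nuclear receptors, had 104, 98.0 and 84.5 CPM in WT. Its levels in the MUL1(-/-) libraries were 8.01, 8.70 and 6.19 CPM. The lowest WT library thus stood far above the highest MUL1(-/-) library. CRABP2 fell by 3.65 on the log2 scale (SE 0.12, adjusted p = 1.11e-11 by edgeR's quasi-likelihood test) and ranked 20 among all tested genes by p. Its bins overlapped no exon of another gene. CRABP1 (ENSG00000166426, chromosome 15, 78340324 to 78348230), its close relative, had 0 counts in all 6 libraries. A count of 0 allows up to 3 counts, which were 0.0211 to 0.0241 CPM in these libraries, and this limit covers counting error only.

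RDH10 (ENSG00000121039, plus strand of chromosome 8, 73294612 to 73325281), the enzyme of the first oxidation step in retinoic acid synthesis, had 13.7, 13.9 and 12.9 CPM in WT. The libraries labelled MUL1(-/-) had 15.2, 15.5 and 18.2 CPM. The groups did not overlap, but MUL1(-/-) replicate 3 stood apart from the other two. The log2 fold change was 0.27 (SE 0.09, adjusted p = 0.0326 by edgeR's quasi-likelihood test), under the fold-change threshold. Without MUL1(-/-) replicate 3 the adjusted p was 0.117. Without WT replicates 1, 2 and 3 in turn it was 0.0843, 0.0741 and 0.0813.

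ALDH1A1 (ENSG00000165092, minus strand of chromosome 9, 72900662 to 73080442), a cytosolic retinal dehydrogenase, had 0.454, 0.295 and 0.182 CPM in WT, from 58, 42 and 23 counts. The libraries labelled MUL1(-/-) had 3.01, 3.70 and 5.09 CPM, from 383, 466 and 634 counts. Counts were thus few in WT, and each MUL1(-/-) library was far above every WT library. It rose by 3.66 on the log2 scale (SE 0.26, adjusted p = 7.23e-08 by edgeR's quasi-likelihood test). In its most counted bin alone the log2 fold change was 4.37.

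ALDH1A2 (ENSG00000128918, minus strand of chromosome 15, 57953424 to 58497866), the main retinoic acid synthesizing enzyme of the early embryo, had 127, 119 and 123 CPM in WT. In MUL1(-/-) it had 192, 200.1 and 209 CPM. Replicates lay close together within each genotype and the groups did not overlap. The log2 fold change was 0.70 (SE 0.07, adjusted p = 1.23e-06 by edgeR's quasi-likelihood test), which is under the fold-change threshold of 1.

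ALDH1A3 (ENSG00000184254, plus strand of chromosome 15, 100877714 to 100916626), the third enzyme of this family, had 5.07, 5.38 and 4.30 CPM in WT. Its MUL1(-/-) libraries had 0.503, 0.946 and 1.25 CPM. Its MUL1(-/-) libraries were spread more, relative to their mean, than those of STRA6 and CRABP2, and all lay below WT. ALDH1A3 fell by 2.45 on the log2 scale (SE 0.22, adjusted p = 9.75e-07 by edgeR's quasi-likelihood test). Of its counts, 46.7% lay in bins that other genes share, among them the antisense gene ALDH1A3-AS1, whose log2 fold change was -2.82. In the bins it shares with none, ALDH1A3 was at -2.38.

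ALDH8A1 (ENSG00000118514, minus strand of chromosome 6, 134917390 to 134950122) was first described as an oxidase of cis-retinal and also acts in the kynurenine pathway of tryptophan breakdown. It had 0.509, 0.429 and 0.363 CPM in WT. In MUL1(-/-) it had 2.04, 2.35 and 2.32 CPM. Each of the latter was above every WT library, and ALDH8A1 rose by 2.36 on the log2 scale (SE 0.17, adjusted p = 9.35e-08 by edgeR's quasi-likelihood test).

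To compare levels between genes, CPM was divided by the length of each gene's exon bins in kilobases. In WT the order of these levels was CRABP2 (86.9 CPM per kb), ALDH1A2 (14.3), RDH10 (2.53), ALDH1A3 (0.852), STRA6 (0.493), ALDH8A1 (0.151), ALDH1A1 (0.109) and LRAT (0.0435). Neighbours in this order did not overlap between libraries, except ALDH8A1 and ALDH1A1, whose WT libraries did. In the libraries labelled MUL1(-/-) the order was ALDH1A2 (23.2 CPM per kb), CRABP2 (6.94), RDH10 (3.06), ALDH1A1 (1.38), ALDH8A1 (0.780), ALDH1A3 (0.156), STRA6 (0.0531) and LRAT (0.00456). No neighbours overlapped there by these sums. ALDH1A2 and CRABP2 thus changed places at the top, and ALDH1A1 passed ALDH1A3 and STRA6 and, by the sums, ALDH8A1. A read enters each bin it touches, so the order depends in part on how a gene is cut into bins. In the most counted bin alone, ALDH1A1 had a mean of 0.329 CPM over 619 bases in MUL1(-/-), and ALDH8A1 0.395 CPM over 764 bases. Per kb these levels were close, so the order of ALDH1A1 and ALDH8A1 there is not settled.

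The summed level of ALDH1A1, ALDH1A2 and ALDH1A3 was 15.2 ± 0.492 CPM per kb (SD, n = 3) in WT and 24.8 ± 1.46 CPM per kb (SD, n = 3) in the libraries labelled MUL1(-/-). ALDH1A2 made up 93.7% ± 0.849 (SD, n = 3) of this sum in WT and 93.9% ± 1.38 in MUL1(-/-), so its share differed by less than the spread between replicates. The share of ALDH1A1 was 0.710% ± 0.294 in WT and 5.53% ± 1.16 in MUL1(-/-). The share of ALDH1A3 was 5.59% ± 0.679 in WT and 0.621% ± 0.229 in MUL1(-/-). ALDH1A1 and ALDH1A3 thus exchanged places as the minor ALDH1A transcripts beside ALDH1A2. These are shares of summed bin counts, which give more weight to a gene cut into many short bins. In the most counted bin alone, mean CPM in WT and MUL1(-/-) was 0.0152 and 0.329 for ALDH1A1 (619 bases). It was 22.9 and 37.3 for ALDH1A2 (1208 bases) and 1.51 and 0.207 for ALDH1A3 (1926 bases). By these bins the share of ALDH1A1 was smaller than by the sums in both genotypes. The shares are of RNA, and in bulk samples fewer cells with a transcript and less of it per cell cannot be told apart.

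**Figure D2:**
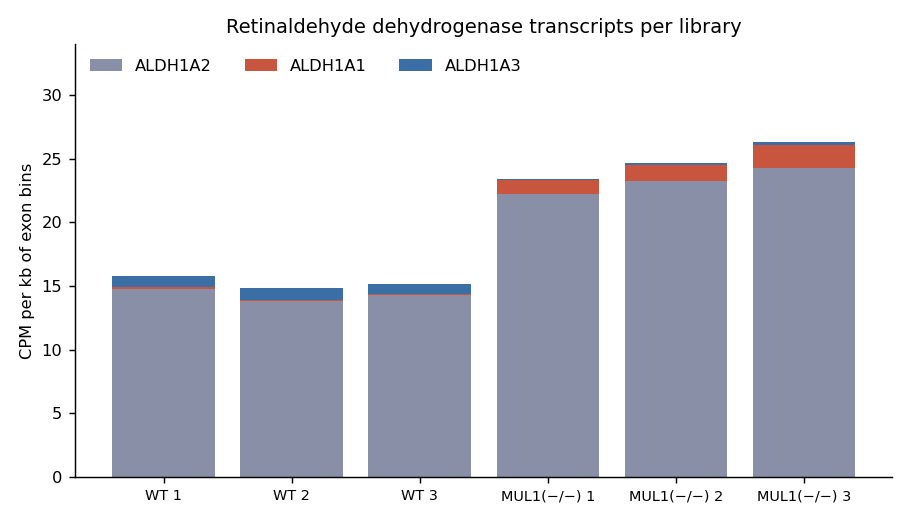
Level of ALDH1A1, ALDH1A2 and ALDH1A3 transcripts (y axis, CPM per kb of exon bins, stacked from 0) in each of the 6 libraries (x axis). ALDH1A2 fills most of every bar, the thin upper layer is mainly ALDH1A3 in WT and ALDH1A1 in MUL1(-/-), and the sum is higher in each MUL1(-/-) library than in any WT library.

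Exon bins with at least 30 counts over the 6 libraries were compared one by one, since a change confined to part of a gene would not show in its sum. Over all genes, 39.3% of such bins had values that did not overlap between the genotypes (19.5% higher, 19.8% lower). All 20 such bins of ALDH1A1 and all 10 of ALDH8A1 were higher in MUL1(-/-) without overlap. All 11 bins of CRABP2, 25 of 27 of STRA6, 20 of 21 of ALDH1A3 and both bins of LRAT were lower without overlap. In ALDH1A2, 29 of 35 bins were higher and the other 6 overlapped. In RDH10, 3 of 12 bins were higher and 9 overlapped. Many bins reached 30 counts only through the genotype in which the gene was high, and the bins compared were 20 of 28 in ALDH1A1, 10 of 19 in ALDH8A1, 27 of 64 in STRA6 and 2 of 23 in LRAT. A read can enter several bins, so bins of a gene are not independent.

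In each member the most 5′ bin with at least 30 counts, which need not be its first annotated bin, was then compared. In RDH10 this bin, at the 5′ end of the gene, had a log2 ratio of mean CPM of 0.61, and its last bin 0.17. It held 15.3% ± 1.15 (SD, n = 3) of the RDH10 counts in WT and 19.4% ± 1.24 in MUL1(-/-). The exact two-sided permutation test gave p = 0.1, the smallest that 3 libraries against 3 allow, and 0.267 adjusted over the 8 members compared in this way. The same kind of bin in CRABP2 held 0.387% ± 0.0370 of its counts in WT and 2.56% ± 0.478 in MUL1(-/-) (SD, n = 3 each). In ALDH1A3 it held 1.68% ± 0.484 and 3.47% ± 1.11 (SD, n = 3 each). The ALDH1A3 bin had 10, 17 and 7 counts in WT and 3, 3 and 5 in MUL1(-/-), so its share rests on few counts. In CRABP2 and ALDH1A3 this exact permutation test gave the same p and adjusted p as in RDH10. Both bins at the 5′ end of CRABP2, which lie upstream of the bin where most of its counts begin, had log2 ratios of -0.91 and -1.34, against -3.64 for its median bin. They held 0.789% ± 0.0892 (SD, n = 3) of the CRABP2 counts in WT and 4.52% ± 0.785 in MUL1(-/-). These bins were singled out after the profile was seen, so their summed share is a description and no p is given for it.

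The sequence upstream of the start was taken from RefSeq on GRCh38.p14 for 8 of the 9 members, in 13 windows since ALDH1A2 and STRA6 have several starts, and RDH10 was not matched. Clusters of CpG dinucleotides mark one of the main promoter classes. In the 250 bases upstream, ALDH1A3 had 38 CpGs, LRAT 24 and CRABP2 18, while ALDH1A1 had 6 and ALDH8A1 1, against a median of 11 over 35116 RefSeq promoters. STRA6, also lower in MUL1(-/-), had 2 to 8 at its 5 starts, and ALDH1A2 had 33 upstream of its start at 58065711 and 1 upstream of its start at 58014023. Lower members thus had both CpG-rich and CpG-poor windows. The windows of 2 lower and 2 higher genes are shown for this range, on the gene's strand from 5′ to 3′, with each CpG in capitals and bases of annotated exons left out. They are chr1:156705817-156706034 for CRABP2, chr4:154743750-154743970 for LRAT, chr9:72953057-72953303 for ALDH1A1 and chr6:134950123-134950351 for ALDH8A1, of which CRABP2, ALDH1A1 and ALDH8A1 are read from the minus strand.
CRABP2: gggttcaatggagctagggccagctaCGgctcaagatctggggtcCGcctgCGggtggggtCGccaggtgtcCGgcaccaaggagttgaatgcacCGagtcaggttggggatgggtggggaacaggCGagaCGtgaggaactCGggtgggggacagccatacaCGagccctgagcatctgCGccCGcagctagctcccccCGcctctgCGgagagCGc
LRAT: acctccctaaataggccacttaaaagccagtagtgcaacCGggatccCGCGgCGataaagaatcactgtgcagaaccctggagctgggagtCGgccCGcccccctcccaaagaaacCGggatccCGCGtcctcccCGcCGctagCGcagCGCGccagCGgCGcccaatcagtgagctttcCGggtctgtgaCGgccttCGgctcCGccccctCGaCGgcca
ALDH1A1: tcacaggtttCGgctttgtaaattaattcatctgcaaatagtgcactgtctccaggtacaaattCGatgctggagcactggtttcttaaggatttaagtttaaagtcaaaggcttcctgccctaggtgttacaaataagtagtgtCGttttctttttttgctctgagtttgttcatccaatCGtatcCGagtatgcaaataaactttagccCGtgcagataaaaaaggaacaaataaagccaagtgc
ALDH8A1: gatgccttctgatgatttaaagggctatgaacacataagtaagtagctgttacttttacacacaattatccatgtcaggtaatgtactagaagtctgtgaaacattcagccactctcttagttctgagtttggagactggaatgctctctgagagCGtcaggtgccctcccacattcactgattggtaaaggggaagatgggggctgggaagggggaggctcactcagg
The RefSeq start of CRABP2 lies in its little-counted upstream bins, so the CRABP2 window borders those bins and not the bin where most of its counts begin.

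Retinoic acid receptors bind direct repeats of a short hexamer, and the receptor gene RARB and the catabolic gene CYP26A1 carry textbook examples. The canonical hexamer AGGTCA was searched on both strands of the 250 upstream bases. Its common variants were searched in the same way, namely AGTTCA, the variant GGGTCA and the variant GGTTCA. Direct repeats were pairs of them spaced by 1, 2 or 5 bases. At least 1 hexamer was in 4 of the 13 member windows and in 33.8% of all promoters. A direct repeat was in 0 of the 13 member windows and in 71 of 35116 promoters (0.202%). Among the other retinoid genes searched, it was in RARB and CYP26A1 alone, shown here on the gene's strand for RARB and on the opposite strand for CYP26A1, with the hexamers in capitals. They lie at chr3:25428210-25428226 and chr10:93073803-93073819.
RARB: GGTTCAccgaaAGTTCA
CYP26A1: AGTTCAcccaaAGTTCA
RARB had a log2 fold change of 0.52 and CYP26A1 of -0.26, both without a call. A window without these letters says nothing about binding elsewhere in the gene.

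Beyond the members, 74 other genes were listed from general knowledge, 60 of retinoid handling and response and 14 other aldehyde dehydrogenases. Of the 60, 41 were tested, and 3 were called higher and 3 lower, 14.6% against 8.14% of all tested genes. The median log2 fold change of the 41 was 0.08. Over all 74, 55 were tested, with 4 called higher and 3 lower.

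Among genes of blood and cell uptake and storage, 0 of 7 tested were called higher and 1 lower, against 4.26% and 3.87% of all tested genes. That gene was RBP7, a cellular retinol-binding protein, which went from 5.53 ± 0.182 to 2.48 ± 0.225 CPM (SD, n = 3 each). RBP7 fell by 1.16 on the log2 scale (SE 0.12, edgeR adjusted p = 2.48e-06). Its call ended under glmTreat, which tests against the fold-change threshold. By the adjusted p alone 1 gene of this list was higher and 1 lower, against 18.8% and 18.7% of all tested genes. The higher gene was DGAT1, an acyltransferase that can esterify retinol, with a log2 fold change of 0.28 (edgeR adjusted p = 0.00748).

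Of 12 tested genes that interconvert retinol and retinal, 2 were called higher and 0 lower, against 4.26% and 3.87% of all tested genes. By the adjusted p alone 3 were higher and 0 lower, against 18.8% and 18.7% of all tested genes. RDH12, a retinal reductase of photoreceptors, had 0.176 ± 0.104 CPM in WT and 0.533 ± 0.0800 in MUL1(-/-) (SD, n = 3 each), with a log2 fold change of 1.60 (SE 0.33, edgeR adjusted p = 0.00140). DHRS9, a dehydrogenase that accepts retinol, had 0.0868 ± 0.0554 and 0.281 ± 0.0666 CPM (SD, n = 3 each), with a log2 fold change of 1.69 (SE 0.40, edgeR adjusted p = 0.00379). DHRS9 passed the filter on low counts through its MUL1(-/-) libraries alone. Both calls ended under glmTreat, which tests against the fold-change threshold, and both genes went untested under a filter of 1 CPM in 3 libraries. RDH13, the third gene higher by the adjusted p, had 20.9 ± 0.757 and 32.9 ± 0.842 CPM (SD, n = 3 each), with a log2 fold change of 0.65 (SE 0.07, edgeR adjusted p = 7.99e-06). Of the RDH13 counts, 40.4% lay in bins that other genes share. DHRS3, which reduces retinal back to retinol and works with RDH10, had a log2 fold change of -0.20 (SE 0.12, edgeR adjusted p = 0.218).

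The CYP26 enzymes break retinoic acid down, and 1 of 3 was called, against 8.14% of all tested genes. CYP26B1 fell from 5.11 ± 0.221 to 1.77 ± 0.0496 CPM (SD, n = 3 each), with a log2 fold change of -1.53 (SE 0.12, edgeR adjusted p = 1.67e-07). CYP26A1 had 8.22 ± 0.558 and 6.89 ± 0.918 CPM (SD, n = 3 each), with a log2 fold change of -0.26 (edgeR adjusted p = 0.0934). CYP26C1 was scarce, at 0.113 CPM in WT and 0.106 CPM in MUL1(-/-) on average.

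None of the 11 receptors, corepressors and delivery proteins was called, against 8.14% of all tested genes. By the adjusted p alone 3 were higher and 1 lower, against 18.8% and 18.7% of all tested genes. RARB had 7.33 ± 0.808 CPM in WT and 10.5 ± 0.756 in MUL1(-/-) (SD, n = 3 each), with a log2 fold change of 0.52 (SE 0.11, edgeR adjusted p = 0.00128). FABP5, which delivers retinoic acid to PPARD, had a log2 fold change of 0.52 (SE 0.09, edgeR adjusted p = 0.000222). NCOR1, a corepressor of unliganded receptors, had the largest change of the list, from 116 ± 6.63 to 184 ± 4.10 CPM (SD, n = 3 each), with a log2 fold change of 0.67 (SE 0.07, edgeR adjusted p = 2.19e-06). RARG was at -0.27 (edgeR adjusted p = 0.0284) and RARA at 0.22 (edgeR adjusted p = 0.0741). For the RXR partners the log2 fold changes were 0.14 for RXRA, -0.03 for RXRB and -0.38 for RXRG, none with an adjusted p under 0.05.

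Of 11 tested genes on a list of genes known to be induced by retinoic acid, 1 was called higher and 1 lower. The shares over all tested genes were 4.26% and 3.87%. CYP26A1, RARB and DHRS3 are among the 11 and were also counted above. The list held no member and not CYP26B1. Its counts thus leave out the 2 members called higher, the 4 called lower (STRA6, LRAT, CRABP2 and ALDH1A3) and CYP26B1, also called lower, so they do not cover every induced gene. RARRES2, which encodes the secreted protein chemerin, rose from 0.303 ± 0.0627 to 1.41 ± 0.202 CPM (SD, n = 3 each), with a log2 fold change of 2.21 (SE 0.21, edgeR adjusted p = 1.09e-06). RET fell from 2.57 ± 0.594 to 1.09 ± 0.148 CPM (SD, n = 3 each), with a log2 fold change of -1.24 (SE 0.18, edgeR adjusted p = 7.61e-05). The call of RET ended under glmTreat, which tests against the fold-change threshold. By the adjusted p alone 4 of the 8 genes not counted above were higher and 1 lower, against 18.8% and 18.7% of all tested genes.

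**Figure D3:**
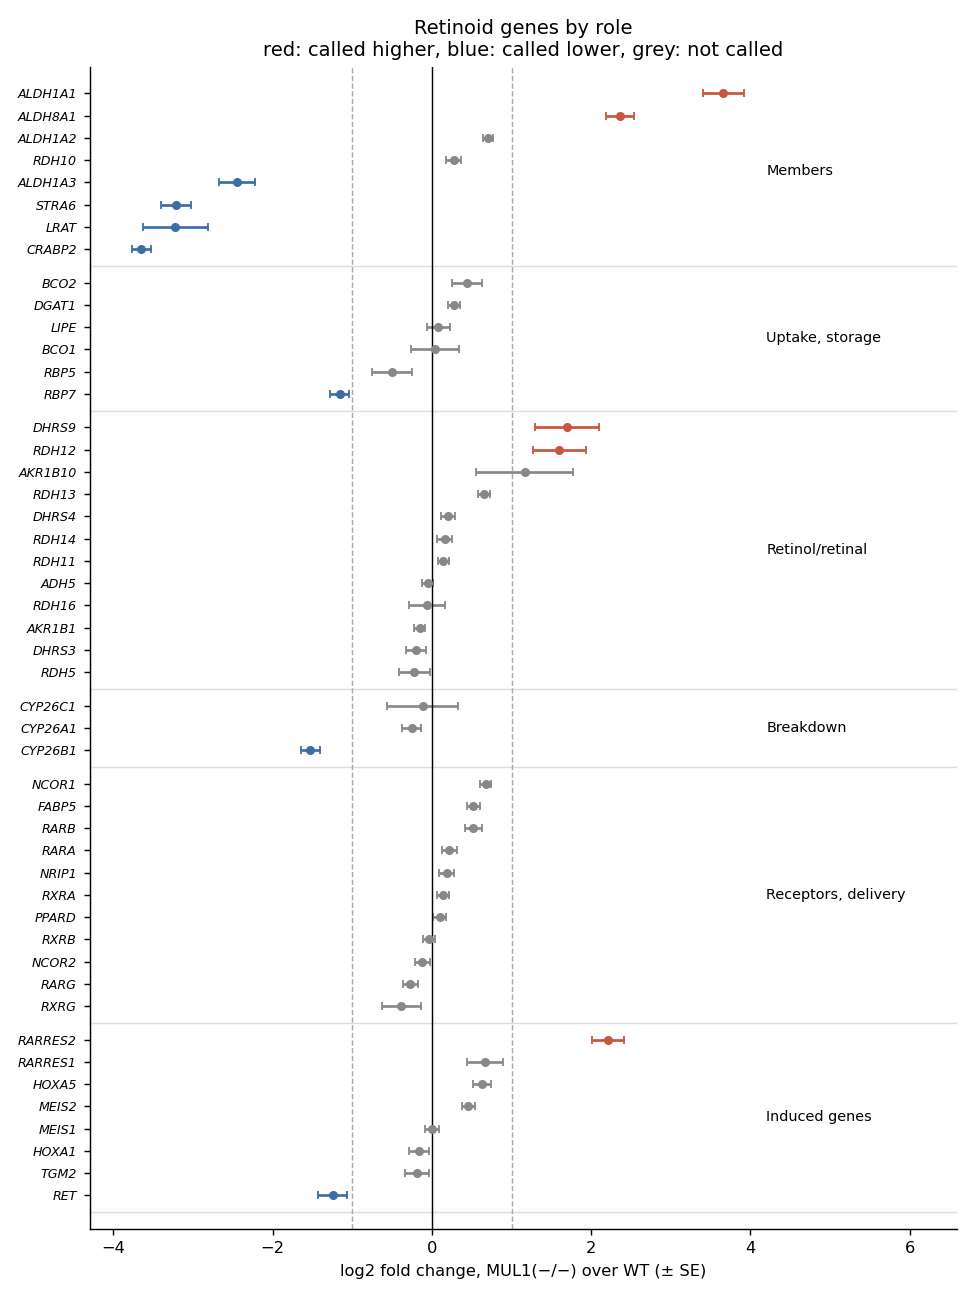
Log2 fold change, MUL1(-/-) over WT (x axis), with its SE as bars, for the tested members and genes of the other retinoid lists (y axis, grouped by role), with dashed lines at the thresholds of -1 and 1. Genes called higher are red, genes called lower blue and others grey; 6 of the 8 tested members lie beyond the dashed lines, and the receptors all lie between them.

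The tested genes nearest to each tested member, 5 on each side along the chromosome, showed whether it moved with its surroundings. Their median log2 fold changes were -0.01 around ALDH1A1, -0.07 around ALDH8A1, -0.16 around ALDH1A2, 0.09 around RDH10, 0.45 around ALDH1A3, 0.14 around STRA6, 0.22 around LRAT and -0.06 around CRABP2. The neighbours of ALDH1A3 thus leaned upward where ALDH1A3 was lower. Around ALDH1A3, PRKXP1 (log2 fold change 1.61) and 2 unnamed genes were called higher and ALDH1A3-AS1 lower. For each member the neighbours called are out of 10, and over all tested genes 4.26% were called higher and 3.87% lower. Near ALDH1A1, ANXA1, a phospholipid-binding protein, was called higher at 1.28 (SE 0.12, edgeR adjusted p = 1.40e-06). Beside STRA6, the overlapping CCDC33 and ISLR (-1.03) were called lower, and beside CRABP2, BCAN was called higher at 1.02. ISLR was scarce, with a mean of 0.163 CPM in WT and 0.0793 CPM in MUL1(-/-) (edgeR adjusted p = 0.0398). Of the neighbours of LRAT, SFRP2 was called lower, from a mean of 0.128 CPM to 0.0106 CPM, under the level of 3 counts. SFRP2 thus passed the filter on low counts through its WT libraries alone. In addition, 1 unnamed neighbour of LRAT was called higher. No neighbour of ALDH8A1, ALDH1A2 or RDH10 was called.

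The genes most like ALDH1A1 and CRABP2 across the 6 libraries were found by the Euclidean distance of centred log2 CPM, among the 15884 genes that averaged 1 CPM or more. For ALDH1A1 they were COL9A1, a collagen chain (distance 0.449), AKR1C1, a ketosteroid reductase (1.02), and SLC4A10, a bicarbonate transporter (1.06). AKR1C1 has close paralogs whose reads the counting could have split, so its value is uncertain. For CRABP2 they were SULT1C4, a sulfotransferase (0.407), TBL1X, a subunit of corepressor complexes (0.460), and UBE2QL1 (0.527). TBL1X went from a mean of 32.0 CPM in WT to 3.01 CPM in MUL1(-/-), and COL9A1 from 0.304 to 3.59 CPM.

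Of the 12 HEK293 markers, all tested, PAX2 (log2 fold change -1.80) and WT1 (-1.53) were called lower and NEFM (1.06) higher, so 3 of 12 were called, against 8.14% of all tested genes. Markers of other cell types were listed to see whether foreign RNA moved with the genotypes. Their summed level, over PTPRC, CD3E, HBB, ALB, COL1A2, DCN, KRT5 and PECAM1, was 2.94, 5.76 and 3.42 CPM in WT and 6.999, 5.27 and 8.66 CPM in MUL1(-/-). The sums overlapped between the genotypes, and COL1A2 was the most abundant marker in 5 libraries, DCN in the other. Of the 6 that were tested, 3 were called higher in MUL1(-/-) and 0 lower, against 4.26% and 3.87% of all tested genes. These were PTPRC, DCN and PECAM1, of which PTPRC and PECAM1 passed the filter on low counts through the MUL1(-/-) libraries alone. DCN had a mean of 1.18 CPM in WT and 2.90 CPM in MUL1(-/-), PTPRC of 0.0947 and 0.363 CPM, and PECAM1 of 0.0515 and 0.222 CPM. CD3E was at 0 in every WT library, and KRT5 averaged 0.0179 CPM in WT and 0.0447 CPM in MUL1(-/-). The part of these marker differences in the results for ALDH1A1, ALDH8A1 and the other members was not tested.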

How the data were processed

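RNA was sequenced from 3 WT and 3 MUL1(-/-) libraries, made from total RNA with a SMARTER mRNA-Seq kit. The submitters' processing notes name Trimmomatic 0.36, STAR 2.5.2b and GRCh38, and the counting program is not given in the sources used here. The authors deposited raw read counts for 597973 exon bins under 54848 identifiers, without normalization. Counting did not use strand, since 11 pairs of bins covering the same bases on opposite strands had a median count ratio of 1.0, and a read entered each bin it overlapped, since 1760 bins had 12 bases or fewer and yet more than 1000 counts.

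Bins were summed per gene, although counts per gene had been planned for. The 2031 identifiers that join overlapping genes held 21.0% of the counts, and their bins went to a gene by the exons of GENCODE 29. Bins that could not be assigned held 3.89% of the counts and were left out. edgeR 4.0.16 (R 4.3.3) was run with TMM factors, filterByExpr, the quasi-likelihood test and Benjamini-Hochberg adjustment over 25166 genes. DESeq2 1.42.0 and limma 3.58.1 served as alternatives, 18 in all. On simulated counts for 25166 genes, of which 200 had a log2 fold change of 2, edgeR recovered 190 with 2 false calls. Libraries of 1 genotype differed by 2.75 to 9.51 times their sampling noise (chi-square over its degrees of freedom, in each gene's most counted bin), so each counted as 1 sample. Tables and figures used Python 3.11.15 with pandas 2.3.3, numpy 2.4.6, matplotlib 3.10.9 and scipy 1.17.1.

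The members and lists were chosen with earlier results of these data known. Apart from a gene that is not reported here, the text names every member, MUL1, every called gene of the retinoid lists, the main receptors, CYP26 enzymes, DHRS3 and FABP5, called neighbours, and the 3 genes most like the most abundant member called in each direction. NCOR1, DGAT1, RDH13 and, in the closing part, ALDH3A2, ALDH16A1 and ALDH1L2 were chosen after their values were seen.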

Additional observations from a re-analysis of the deposited data

How the results depend on the processing

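No member changed direction or call under the 17 alternatives that refit its log2 fold change, except that LRAT was not tested under a filter of 1 CPM in 3 libraries or in its most counted bin, so 3 members were called lower there. The adjusted p of RDH10 was 0.05 or more in 5 of the 16 that test against no change, at most 0.153 in its most counted bin, and 1 under glmTreat, which tests against the fold-change threshold. The log2 fold change of CRABP2 ranged from -3.74 to -3.52, of STRA6 from -3.40 to -2.10, of LRAT from -3.72 to -2.87 over 15 alternatives, of ALDH1A3 from -2.85 to -2.15, of ALDH1A1 from 3.39 to 4.37, of ALDH8A1 from 2.25 to 2.54 and of ALDH1A2 from 0.67 to 0.77. MUL1 ranged from 0.07 to 0.24 (adjusted p 0.0529 to 0.697 in the 16, and 1 under glmTreat). With the adjusted p alone, 4 members, 17 other listed genes and 4721 of all genes were higher, and 4, 10 and 4718 were lower. With a filter of 1 CPM in 3 libraries, 1 listed gene was called higher and 3 lower, and of the 16042 genes tested there 333 were higher and 446 lower. With glmTreat, 1 listed gene was called in each direction (RARRES2 higher, CYP26B1 lower, while the calls of RDH12, DHRS9, ALDH3A1, RBP7 and RET ended), and 288 of all genes were higher and 320 lower. In each gene's most counted bin, 2 listed genes were called higher and 4 lower, and of the 22826 genes tested there 828 were higher and 852 lower. With any 1 replicate left out, 2 members were called higher and 4 lower each time, with 4 to 6 other listed genes higher and 3 to 4 lower, and 1011 to 1279 of all genes higher and 905 to 1073 lower. With the replicate number as a block, 2 members were called higher and 4 lower, 4 other listed genes higher and 3 lower, and 1968 of all genes against 2048, of which 1933 were shared. Deviations of same-numbered libraries correlated at r = -0.0825, 0.158 and 0.0990 across 15884 genes, which are not independent replicates, so the samples share only a number. Scaling by library totals moved the median log2 fold change of all genes to 0.06, and counts of 2 to 7 in LRAT limit the size of its change.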

Other observations

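The 14 other aldehyde dehydrogenases, which act on lipid, amino acid and folate aldehydes, were all tested. Of these, 1 was called higher and 0 lower, against 4.26% and 3.87% of all tested genes. That gene, ALDH3A1, had 0.176 ± 0.0429 CPM in WT and 0.501 ± 0.126 in MUL1(-/-) (SD, n = 3 each), with a log2 fold change of 1.51 (SE 0.29 and adjusted p = 0.000684 by edgeR's quasi-likelihood test). Its call ended under glmTreat, and it was not tested under a filter of 1 CPM in 3 libraries. By the adjusted p alone 6 were higher and 6 lower, against 18.8% and 18.7% of all tested genes, with a median log2 fold change of 0.02. The fatty aldehyde dehydrogenase ALDH3A2 rose from 83.3 ± 3.76 to 137 ± 3.09 CPM (SD, n = 3 each), with a log2 fold change of 0.72 (edgeR adjusted p = 1.02e-06). ALDH16A1 was at 0.80 (edgeR adjusted p = 2.48e-06). The mitochondrial folate enzyme ALDH1L2 had 13.5 ± 3.70 and 7.11 ± 1.40 CPM (SD, n = 3 each), with a log2 fold change of -0.92 (edgeR adjusted p = 0.000766).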
